A study of Mus musculus with 30 samples.

Results

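The oligodendrocyte lineage and myelin genes of the mouse forebrain were described as a set of 36 genes among the 51752 in the count table. The set was given as a list of gene names and not by a rule on measured values, but it was chosen with earlier results of these data known. It was read as 31 mature members and 5 precursor members. The precursor members, Pdgfra, Cspg4, Gpr17, Bcas1 and Enpp6, are expressed before or while a cell begins to myelinate. The mature members hold the myelin genes and also transcription factor genes such as Olig2 and Sox10, which act before myelin genes are on. The lists are thus not a clean split of stages. All 36 members had at least 10 reads in every library and passed the filter on low counts in each of the 11 comparisons.

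Oligodendrocytes wrap axons in myelin, a compacted membrane built from a few abundant proteins (such as myelin basic protein) and from galactolipids. They arise from precursors that carry the PDGF receptor alpha and the proteoglycan NG2, and pass through a short premyelinating stage marked by Gpr17, Bcas1 and Enpp6 before myelin genes are switched on by factors such as Olig2, Sox10 and Myrf. Microglia, the macrophages of the brain, depend on the receptor Csf1r, for which interleukin-34 (IL-34) is a ligand, and are known to take up myelin.

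The libraries come from 15 mice in 2 experiments, which deleted the IL-34 gene or blocked its protein. The genotype experiment had 4 Il34 heterozygotes (Het; animals 1, 20, 21 and 23, of which 2 were male and 2 female) and 3 Il34 knockouts (KO; male animal 3 and female animals 6 and 24), so its control arm holds 1 intact copy of Il34. The antibody experiment had wild-type mice, 4 given the control antibody anti-gp120 (animals 1, 7, 8 and 15, 2 of each sex) and 4 given a blocking antibody against IL-34 (anti-IL34; male animals 2, 10 and 24 and female animal 11). Animal numbers are repeated between the experiments and name different mice. Each mouse gave 1 whole-forebrain library from a hemisphere and 1 library of cells isolated from the other with CD11b, a surface protein of microglia and other myeloid cells. The labels give neither ages nor the dose or schedule of the antibodies, and do not say in which cells or from which age the knockout acts.

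The libraries held 15.1 to 75.2 M counts each (M, mega). Levels are given as counts per M counts (CPM) after TMM scaling, which adjusts for differences in library composition. The microglia markers were averaged as log2 CPM. Their arm means were 2.45 to 4.70 in whole forebrain and 8.02 to 9.91 in the isolates. Those of the neuron markers were 7.81 to 7.87 and 4.23 to 5.35. The isolates were thus rich in microglial RNA and still held RNA of other cells, the members included. Microglia markers moved with both treatments. Their median log2 fold change was -1.33 in KO against Het forebrain and -1.30 in anti-IL34 against anti-gp120 forebrain, with 10 of 11 tested markers lower in each (edgeR, adjusted p under 0.05). The Il34 gene itself was at 6.55 to 8.31 CPM in KO forebrain and 18.6 to 23.2 CPM in Het forebrain, and at 30.5 to 38.3 CPM with anti-gp120 and 34.7 to 39.4 CPM with anti-IL34, so KO forebrain was lowest but not at 0. In the isolates Il34 was at 5.17 to 7.04 CPM in KO and 5.06 to 10.3 CPM in Het, which overlap.

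The DNA just upstream of the start site is shown for 3 mature members that were lower in KO forebrain (Cnp, Mobp and Cldn11) and for the precursor gene Pdgfra, which did not pass, so that members with and without a SOX motif can be compared. These 4 were chosen after their values were seen, from members with a single start site in the table. The sequences are RefSeq's (assembly GRCm38.p6), plus strand, 5′ to 3′, and end before the first annotated exon. Capitals mark the letters ACAAAG or, on the other strand, CTTTGT, the core that SOX-family factors such as Sox10 are known to bind.
Cnp, chr11:100574689-100574903: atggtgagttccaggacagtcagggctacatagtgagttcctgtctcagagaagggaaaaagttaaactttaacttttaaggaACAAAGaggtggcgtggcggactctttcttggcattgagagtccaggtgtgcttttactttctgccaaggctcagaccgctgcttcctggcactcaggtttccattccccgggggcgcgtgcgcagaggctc
Mobp, chr9:120149492-120149706: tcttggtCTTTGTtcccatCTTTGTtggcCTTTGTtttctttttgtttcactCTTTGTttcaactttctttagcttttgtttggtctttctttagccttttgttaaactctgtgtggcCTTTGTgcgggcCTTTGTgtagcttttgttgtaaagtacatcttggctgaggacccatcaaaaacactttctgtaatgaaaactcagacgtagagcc
Cldn11, chr3:31149670-31149919: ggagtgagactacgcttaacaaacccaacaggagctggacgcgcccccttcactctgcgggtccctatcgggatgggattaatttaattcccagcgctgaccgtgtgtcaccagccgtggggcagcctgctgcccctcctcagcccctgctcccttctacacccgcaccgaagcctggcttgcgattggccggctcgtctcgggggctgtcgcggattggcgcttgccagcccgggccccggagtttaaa
Pdgfra, chr5:75152001-75152250: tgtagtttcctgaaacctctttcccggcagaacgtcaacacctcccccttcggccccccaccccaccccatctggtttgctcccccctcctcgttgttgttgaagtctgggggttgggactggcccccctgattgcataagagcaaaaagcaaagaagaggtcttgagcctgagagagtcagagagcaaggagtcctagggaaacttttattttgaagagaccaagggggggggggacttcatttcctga
Distances are counted from RefSeq's start site, which for Cnp and Mobp lies past the end of the sequence shown, since the last 35 bases before it are annotated as exon by GENCODE and were left off. Cnp held 1 such match, 167 bases before that start, and Mobp held 6, between 243 and 120 bases before it. No 2 matches overlap, and Cldn11 and Pdgfra held none.

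A window of 250 bases before a start was found for 26 members, some with several starts. The SOX letters were present in 4 of 8 members that were lower in KO forebrain, in 3 of 15 mature members that did not pass the test and in 0 of 3 precursor members, against 16.5% of 32851 windows of all genes. The letters CAGCTG, an E-box (the same on both strands) of the kind bound by basic helix-loop-helix factors such as Olig2, were present in 0, 3 and 0 of the same groups, against 13% of all windows. Genes with several windows have more chances of a match than a single window does. These matches describe the letters and show no binding.

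In the forebrain of KO mice, 11 of the 31 mature members were lower than in Het forebrain and none was higher, while 0 of the 5 precursor members passed the test (edgeR quasi-likelihood test with sex as a covariate, Benjamini-Hochberg adjusted p under 0.05 over all genes tested). The 11 were the myelin membrane genes Mog, Mbp, Mobp, Mal, Cldn11, Cnp and Tspan2, the lipid enzyme gene Fa2h, the iron carrier gene Trf, the receptor gene Lpar1, and Tmem88b. Over all 19343 genes tested, 0.615% were called lower. The fall was modest, with fitted levels of 73.0% (Mal) to 81.3% (Cnp) of Het. The median log2 fold change of the 31 mature members was -0.30, against 0.00 over all genes, and 30 of the 31 had a negative value.

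Mog (chr17:37010743-37023398, minus strand, build GRCm38 as for all positions) encodes a glycoprotein of the outermost myelin layer. Its forebrain level was 63.9, 81.2, 65.8 and 69.1 CPM in Het animals 1, 20, 21 and 23, and 49.6, 55.8 and 53.8 CPM in KO animals 3, 6 and 24. Every KO library was below every Het library. The means were 70.0 ± 7.76 CPM (SD, n = 4) and 53.1 ± 3.17 CPM (SD, n = 3), with a fitted log2 fold change of -0.41 (SE 0.059, edgeR adjusted p 0.00514).

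Mbp, which encodes the myelin basic protein that holds compact myelin together, was at 2190, 2500, 2160 and 2210 CPM in Het and 1690, 1890 and 1650 CPM in KO forebrain, in the same order of animals. The arms did not overlap, and animal 20 was the highest of the Het libraries. Its log2 fold change was -0.37 (SE 0.055, edgeR adjusted p 0.00614). Mag (chr7:30899176-30914873), a glycoprotein of the membrane next to the axon, stood at 173, 205, 191 and 187 CPM in Het and 146, 171 and 144 CPM in KO. Its arms did not overlap either, yet its edgeR adjusted p of 0.055 (log2 fold change -0.29, SE 0.06) was just outside the threshold. Cnp (chr11:100574904-100591729), a phosphodiesterase of non-compact myelin, gave 320, 355, 311 and 316 CPM in Het and 250, 290 and 253 CPM in KO. It was lower by test (log2 fold change -0.30, SE 0.053, edgeR adjusted p 0.0229). The Cnp span overlaps that of Dnajc7 on the other strand, and Dnajc7 itself had a log2 fold change of 0.00.

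Trf (chr9:103204001-103230444), the gene of the iron carrier transferrin that oligodendrocytes make, had the smallest p-value of the members. Its level was 91.7, 107, 104 and 106 CPM in Het and 75.7, 82 and 79.6 CPM in KO, with no overlap (log2 fold change -0.37, SE 0.051, edgeR adjusted p 0.00392). Trf stood 2.83 log2 units higher in isolates than in forebrain of the controls and microglia markers were lower in KO, and their part in the Trf value was not tested. Lpar1 (chr4:58435255-58553898), a lysophosphatidic acid receptor of myelinating cells, was at 33.3, 41.4, 36.5 and 38.6 CPM and 28.3, 29.9 and 29.9 CPM. The KO libraries lay close together, below the lowest Het library (log2 fold change -0.36, SE 0.058, edgeR adjusted p 0.012). Cldn11 (chr3:31149920-31164324), the claudin of the myelin tight junctions, had means of 155 ± 13.6 CPM (SD, n = 4) and 125 ± 6.34 CPM (SD, n = 3), also without overlap (log2 fold change -0.32, SE 0.052, edgeR adjusted p 0.0127).

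The other 5 called members gave fitted levels of 79.7% of Het for Mobp, a basic protein of compact myelin, 73% for Mal, a protein of membrane rafts, and 78.3% for Tspan2, a tetraspanin. They were 80.8% for Fa2h, which hydroxylates the fatty acids of myelin galactolipids, and 80.9% for Tmem88b, a membrane protein gene. The KO libraries were below the Het libraries for each of the 11.

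Further mature members had negative values that did not pass, given here as log2 fold changes. They were Opalin (-0.38), Ermn (-0.27), the connexin genes Gjb1 (-0.45) and Gjc3 (-0.24), Hapln2 (-0.32), Ninj2 (-0.23), Adamts4 (-0.24) and Ppp1r14a (-0.19). The genes Ugt8a (-0.28), whose enzyme makes galactosylceramide, Car2 (-0.17) and Qdpr (-0.03) did not pass either.

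Among the remaining mature members, none of the 6 transcription factor genes passed the test, with log2 fold changes from -0.39 (Nkx6-2) to -0.15 (Olig2). Sox10 was at 28.2, 30.0, 25.8 and 25.7 CPM in Het and 22.3, 27.3 and 22 CPM in KO, and Olig2 at 20.7, 23, 20.3 and 20.7 CPM and 18.4, 20.3 and 18.4 CPM. For both genes KO animal 6 reached the Het range. Aspa, the enzyme that cleaves N-acetylaspartate, had the lowest fitted level at 72.6% of Het, but its libraries overlapped and it did not pass (edgeR adjusted p 0.0772). At an unadjusted p under 0.05, 26 of the 31 mature members qualified, or 83.9%, against 7.45% of all genes tested. Cntn2, a cell adhesion gene also expressed by neurons, was the 1 mature member with a positive value (0.03, SE 0.044), at 66.3 ± 2.79 CPM (SD, n = 4) and 66.6 ± 1.72 CPM (SD, n = 3).

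The KO and Het libraries did not overlap, with KO lower, for 18 of the 36 members, all mature, where 6.24% of all genes tested had that pattern. Within sexes the direction was the same for most: the KO male was below both Het males in 30 of 31 mature members, against 38.3% of all genes tested, and both KO females were below both Het females in 26 of 31, against 21.3%.

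**Figure D1:**
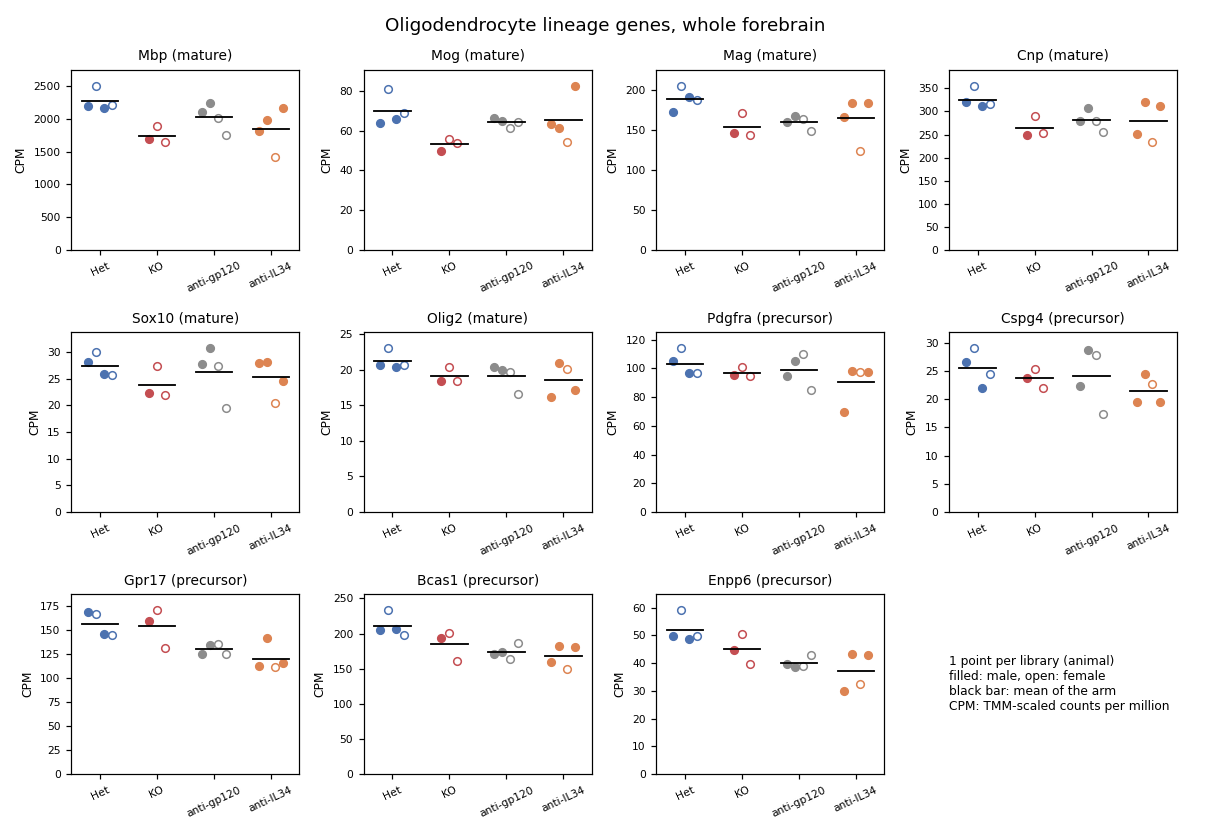
Forebrain level (CPM, linear axis from 0) of 6 mature and 5 precursor members by arm, with 1 point per animal (filled, male; open, female) and a bar at the mean of the arm. Mog runs from 49.6 to 55.8 CPM in KO against 63.9 to 81.2 CPM in Het, while Gpr17 of KO animals overlaps that of Het.

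The precursor members gave smaller values. Pdgfra (chr5:75152292-75198215), the growth factor receptor of precursors, was at 105, 114, 97 and 96.5 CPM in Het and 95.1, 101 and 95 CPM in KO forebrain (log2 fold change -0.07, SE 0.058). Cspg4 (chr9:56865033-56899870), the NG2 proteoglycan gene, was at 26.6, 29, 22 and 24.4 CPM and 23.8, 25.4 and 21.9 CPM (-0.09, SE 0.084). In both, the KO libraries lay inside or at the edge of the Het range.

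Gpr17, a receptor gene of committed premyelinating cells, stood at 168, 166, 145 and 144 CPM in Het and 159, 170 and 131 CPM in KO, a log2 fold change of 0.00 (SE 0.078). Bcas1 (chr2:170346991-170427845), a marker of cells in early myelination, was at 205, 233, 206 and 198 CPM and 194, 201 and 161 CPM (-0.16, SE 0.074, unadjusted edgeR p 0.0481). Enpp6 (chr8:46986887-47096762), a choline phosphodiesterase of newly forming oligodendrocytes, was at 49.9, 59, 48.7 and 49.6 CPM and 44.7, 50.6 and 39.6 CPM (-0.19, SE 0.078, unadjusted edgeR p 0.0281). KO animal 24 was the lowest KO library and animal 6 the highest for all 5 precursor members. With edgeR 0 of 5 passed and 2 had an unadjusted p under 0.05, and DESeq2 also called 0. Their median was -0.09, against -0.30 for the mature members, a difference between the lists that was not tested.

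Other genes of the lineage, from lists compiled with earlier results of these data known, were read in the same way. Of 28 tested genes of a further list of mature oligodendrocyte genes, 3 were lower and 0 higher, among them Tmem63a (log2 fold change -0.47, SE 0.079, edgeR adjusted p 0.0141) and Pllp (-0.32, SE 0.062), the last named here after its value was seen. Tmem63a was also lower in KO isolates (-1.16, SE 0.18, edgeR adjusted p 0.0206), where 5.37% of all genes were called. That call rests on single animals, since no gene passed there without Het animal 20, Het animal 23 or any single KO animal. Tmem63a stood 3.70 log2 units higher in isolates than in forebrain of the controls. The part of the microglia markers, lower in KO as well, was not tested. None of 17 further precursor genes (median -0.04) and none of 13 genes of newly formed oligodendrocytes (median -0.12) passed in edgeR, where 1 and 5 of them had an unadjusted p under 0.05. Astrocyte markers had a median of -0.08 with 12 of 12 negative, and neuron markers of 0.04 with 8 of 11 positive. None of either list was called in edgeR (1 and 2 at an unadjusted p under 0.05). Choroid plexus markers had a median of -0.22 with 8 of 10 negative, none called and 3 at an unadjusted p under 0.05. Endothelial, mural, fibroblast and erythroid markers had medians of -0.08, -0.03, -0.16 and -0.15, with none called. In whole tissue, fewer oligodendrocytes and less RNA per oligodendrocyte cannot be told apart.

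The lower mature members rested on few animals. Without KO animal 3, the single KO male, 0 of 36 members passed in edgeR (the median of the mature members was then still negative, and over all fits that left out 1 animal it lay between -0.33 and -0.25). Without KO animal 6 the count was 4, without KO animal 24 or Het animal 21 it was 5, and without Het animal 20 it was 7. With no sex term 3 members passed (Mog, Mbp and Trf), with DESeq2 15, and with no filter on low counts 22, of which 2 were the precursor genes Bcas1 and Enpp6. Between 0.279% and 1.24% of all genes were called in these fits.

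Antibody treatment gave no called member in forebrain. Of 36 members 0 passed the test (edgeR, 0.717% of 17143 genes called in either direction). An unadjusted p under 0.05 was found for 2 members, against 4.86% of all genes, and DESeq2 called 0, against 1.15%. The mature median was -0.04, with no stable sign (-0.09 to 0.08 when 1 animal was left out), and the precursor median was -0.09 (-0.15 to -0.03). Mog was at 66.5, 64.9, 61.3 and 64.4 CPM with anti-gp120 (animals 1, 7, 8 and 15) and 63.4, 61.4, 54.5 and 82.5 CPM with anti-IL34 (animals 2, 10, 11 and 24). Mbp was at 2110, 2240, 2020 and 1750 CPM and 1810, 1980, 1420 and 2170 CPM in the same order (log2 fold change -0.20, SE 0.093, edgeR adjusted p 0.999). For Mog the anti-IL34 libraries reached both below and above the controls, for Mbp only below, with female animal 11 the lowest of its arm for 25 of the 31 mature members.

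Cnp, at 280, 307, 280 and 256 CPM with anti-gp120 and 251, 321, 233 and 312 CPM with anti-IL34, reached both below and above the controls. Mag was at 160, 168, 164 and 149 CPM and 166, 184, 124 and 184 CPM, and Sox10 at 27.7, 30.7, 27.3 and 19.5 CPM and 28, 28.1, 20.4 and 24.6 CPM. Olig2 was at 20.4, 19.9, 19.7 and 16.6 CPM and 16.1, 20.9, 20.1 and 17.1 CPM. In each of these genes the arms overlapped. Car2, a carbonic anhydrase of oligodendrocytes, had the largest negative value and was the 1 member whose arms did not overlap, at 73.1, 66.7, 67.9 and 65.1 CPM against 60.9, 60.8, 53.2 and 51.8 CPM (log2 fold change -0.26, SE 0.071), where 3.45% of all genes did not overlap. It did not pass (edgeR adjusted p 0.245). Mal had the largest positive value (0.09, SE 0.19).

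The 5 precursor genes all had negative values that did not pass the test. Pdgfra was at 94.5, 105, 110 and 84.7 CPM with anti-gp120 and 69.5, 98.2, 97.1 and 97.4 CPM with anti-IL34, and Cspg4 at 22.3, 28.6, 27.8 and 17.4 CPM and 19.4, 24.5, 22.6 and 19.5 CPM. Gpr17 was at 125, 134, 135 and 125 CPM and 112, 141, 111 and 115 CPM, and Bcas1 at 171, 174, 164 and 186 CPM and 160, 183, 149 and 181 CPM. All 4 pairs of arms overlapped. Enpp6 was at 39.7, 38.6, 39 and 42.8 CPM and 29.9, 43.2, 32.5 and 43 CPM, with 2 anti-IL34 animals below the control range and 2 above its highest value.

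Deletion and antibody were set against each other directly, as the difference between their log2 fold changes in forebrain. No member passed (edgeR, 0.0101% of 19724 genes called), 9 of 36 had an unadjusted p under 0.05, all mature (3.07% of all genes), and DESeq2 called 0. The median difference was -0.26 for the mature members (-0.40 to -0.17 when 1 animal was left out) and 0.01 for the precursors (-0.07 to 0.08). With no filter on low counts 3 members passed (Mal, Tspan2 and Mog, where 0.352% of all genes were called). Mog had a difference of -0.44 (SE 0.15, edgeR adjusted p 1) and Mal the largest, -0.59 (SE 0.25). A call in the genotype experiment and none in the antibody experiment therefore does not show that the members responded differently.

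**Figure D2:**
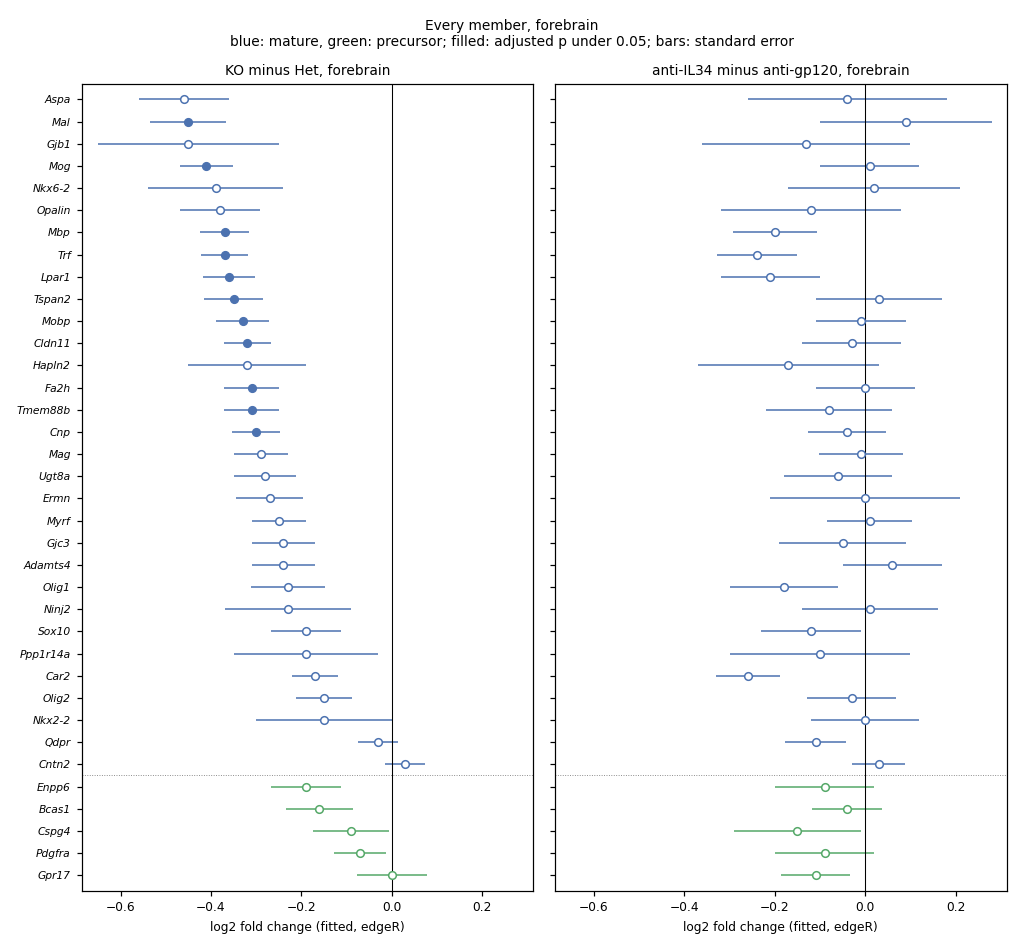
Fitted log2 fold change of each member in forebrain (point) with its standard error (bar), for KO minus Het on the left and anti-IL34 minus anti-gp120 on the right, mature members above the dotted line and precursors below it. Filled points passed the test: 11 mature members on the left and 0 on the right, where the median of the mature members is -0.04 and turns sign when single animals are left out.

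Between the control arms of the experiments, 1 of the 36 members differed by test in forebrain. Anti-gp120 and Het animals differ by experiment, Il34 copy number and antibody at once, which cannot be told apart, and each arm is also the control of a comparison above. This was Enpp6, at 40.0 ± 1.88 CPM (SD, n = 4) against 51.8 ± 4.81 CPM (SD, n = 4) (log2 fold change -0.36, SE 0.066, edgeR adjusted p 0.0298, with 0.198% of all genes called lower). All anti-gp120 libraries were below all Het libraries, as for 3 of the 5 precursor and 5 of the 31 mature members and 4.38% of all genes. DESeq2, which called 2.21% of all genes, called Bcas1 and Gpr17 too, at log2 fold changes of -0.26 and -0.25. With single animals left out, Enpp6 was past the threshold in 2 fits of 8, those without anti-gp120 animal 15 or Het animal 23. Of the microglia markers 11 of 11 were higher in anti-gp120 forebrain (median 0.89), and of the choroid plexus markers 5 of 10 were lower (median -1.48). The part of these lists in the Enpp6 result was not tested. The precursor median was -0.25, with 5 of 5 negative and 3 at an unadjusted p under 0.05, where 11.3% of all genes were. The mature median was -0.10 with 0 called in edgeR (9 at an unadjusted p under 0.05, and 0 in DESeq2), the largest positive value being that of Hapln2 (0.24, SE 0.16).

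**Figure D3:**
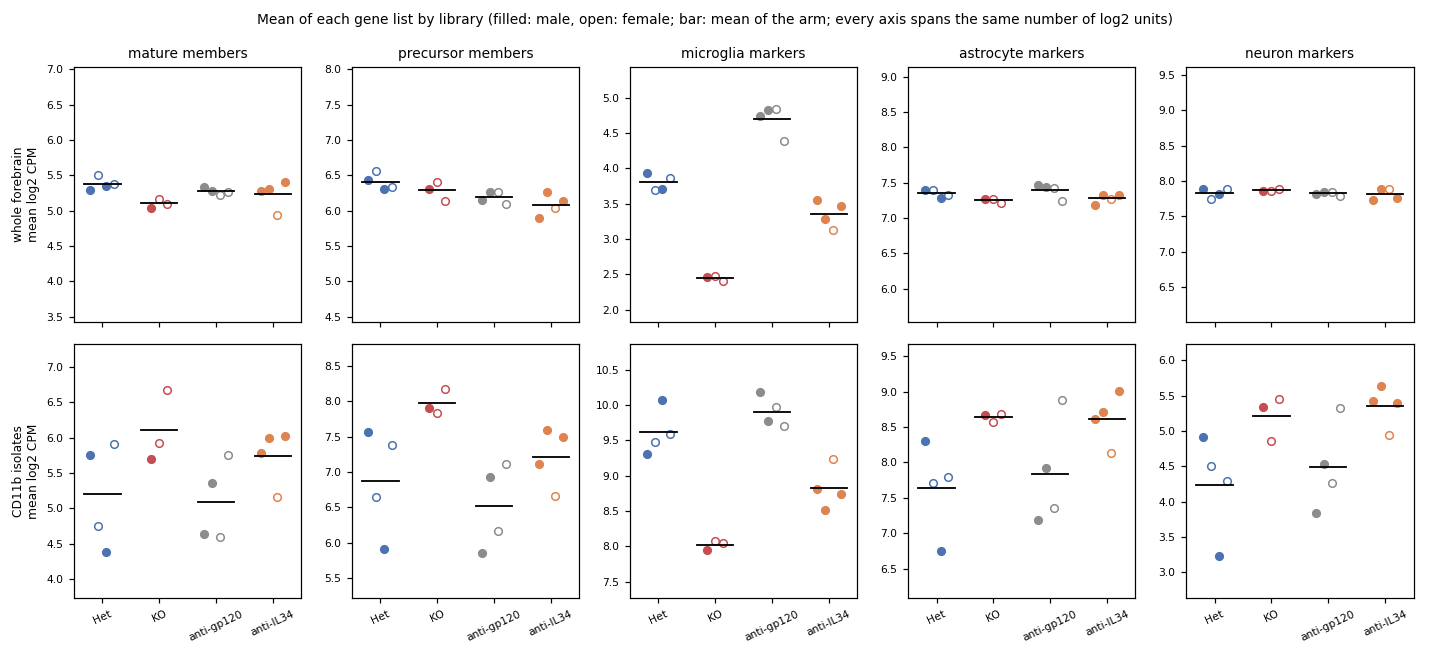
Mean log2 CPM of the mature members, the precursor members and the microglia, astrocyte and neuron markers in each library (points; filled, male; open, female) with the mean of the arm (bar), in whole forebrain (top) and CD11b isolates (bottom), each axis spanning the same number of log2 units. In forebrain the mature mean is 5.10 in KO against 5.38 in Het, and in the isolates it spreads from 4.38 to 5.91 within Het alone.

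The CD11b isolates held oligodendrocyte RNA at levels near those of whole forebrain. In the 8 control animals the median log2 difference, isolate minus forebrain, was -0.14 for the mature members and 0.31 for the precursors, against -4.26 for the neuron markers and 5.57 for the microglia markers. Of the 31 mature members 6 were higher and 4 lower in the isolates and 1 of 5 precursors was higher (edgeR), in a contrast where 40.5% of all genes were called higher and 43% lower, so these counts are below the background. Trf stood furthest above forebrain, at 654 ± 99.4 CPM (SD, n = 4) in Het isolates and 102 ± 7.00 CPM (SD, n = 4) in Het forebrain (log2 fold change 2.83, SE 0.11, edgeR adjusted p 6.62e-13). Cspg4 followed (1.49, SE 0.16, edgeR adjusted p 2.01e-07), a gene that pericytes also express.

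The other genes called higher were Adamts4, a matrix protease gene (0.77), Mbp (0.74), Ppp1r14a (0.74), Car2 (0.50) and Lpar1 (0.37), all log2 fold changes of isolate over forebrain. Cntn2 was furthest below forebrain (-3.25, SE 0.22, edgeR adjusted p 9.41e-10), and Hapln2, a link protein of the nodes of Ranvier (-0.77), Opalin (-0.58) and Ninj2 (-0.57) were lower. The libraries of an animal are paired, and a replicate block by animal ended the calls of Car2 (edgeR adjusted p 0.0608) and Lpar1 (0.0667), leaving 4 higher mature members. It also called Mog, Aspa, Gjc3, Cldn11, Ermn and Tspan2 lower, for 10 lower mature members in place of 4. Leaving out single animals gave 2 (without anti-gp120 animal 1) to 7 (without Het animal 1) lower mature members. Mbp and Mog also differed in their balance between the tissues: the ratio of Mbp to Mog counts had arm medians of 27.5 to 33.9 in forebrain and 62.0 to 103 in the isolates. Of the further lists, 10 of 28 mature genes were higher (led by Tmem63a and Cd9) and 8 lower (led by Pex5l and Zfp536), 1 of 17 precursor genes was higher (Mmp15) and 9 lower (led by Olfm2 and Pcdh15), and 9 of 13 genes of newly formed cells were higher (led by Itpr2 and Frmd4a) and 1 lower (Rras2).

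Between animals of 1 arm the isolates varied far more than forebrain. The mean of the mature members, as isolate minus forebrain in the same animal, was 0.47, -0.76, -0.97 and 0.53 log2 units in Het animals 1, 20, 21 and 23. It was 0.66, 0.76 and 1.58 in KO animals 3, 6 and 24. Anti-gp120 animals 1, 7, 8 and 15 had -0.70, 0.09, -0.63 and 0.49, and anti-IL34 animals 2, 10, 11 and 24 had 0.51, 0.70, 0.22 and 0.63. For these mature members 2 of 4 animals were below their forebrain in both control arms, and every animal was above it in both treated arms. For the precursor members, Het animal 21 (-0.39) and anti-gp120 animals 1 (-0.30) and 8 (-0.09) were below their forebrain. Every other animal was above it, at 1.42 to 2.04 in KO and 0.63 to 1.36 with anti-IL34.

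In isolates of KO mice the members tended to be higher than in Het, but none passed the test. With edgeR 0 of 36 members were called, where 5.37% of all genes were, 6 had an unadjusted p under 0.05 and DESeq2 called 3 (Trf lower, Car2 and Pdgfra higher). Over all genes 32.6% had an unadjusted p under 0.05 and DESeq2 called 21.4%, so both member counts are below the background. The medians were 0.78 for the mature members, with 30 of 31 positive, and 0.98 for the precursors, with 5 of 5 positive, and leaving out 1 animal gave 0.52 to 1.16 and 0.76 to 1.36. The arms did not overlap, with KO higher, for 8 mature and 3 precursor members, or 11 of 36, where 17.7% of all genes had that pattern. Astrocyte and neuron markers had similar medians, 0.95 and 0.99, with 12 of 12 and 11 of 11 positive and none called (6 and 4 at an unadjusted p under 0.05), while 11 of 11 microglia markers were lower with a median of -1.57. The part of these lists in the members' values was not tested.

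Mbp was at 4200, 2900, 1650 and 5550 CPM in Het isolates (animals 1, 20, 21 and 23) and 4500, 4450 and 9340 CPM in KO isolates (animals 3, 6 and 24). Mog was at 70.9, 27.2, 23.3 and 84 CPM and 57.3, 77.8 and 151 CPM. KO animal 24 was the highest KO library in 30 of the 31 mature members, and Het animal 23 was above both other KO libraries for Mbp and Mog.

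Cnp gave 525, 236, 178 and 549 CPM in Het and 482, 623 and 1010 CPM in KO isolates, and Mag 285, 108, 91.8 and 345 CPM and 246, 349 and 624 CPM. Both pairs overlapped. Of the 6 transcription factor genes, Myrf and Nkx6-2 overlapped between the arms, while for Sox10, Olig1, Olig2 and Nkx2-2 the KO isolates were all above the Het isolates, with Sox10 at 46.1, 15.7, 10.3 and 44.6 CPM against 51.7, 53.4 and 69.2 CPM (log2 fold change 0.97, SE 0.54, edgeR adjusted p 0.242). Olig2 was at 40.3, 15.5, 10.5 and 35 CPM against 46.8, 48.2 and 58.4 CPM (1.01, SE 0.47, edgeR adjusted p 0.182).

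Among the precursors, Gpr17 had the largest positive value of all members, at 346, 133, 78.6 and 300 CPM in Het and 404, 419 and 587 CPM in KO isolates (log2 fold change 1.11, SE 0.53, edgeR adjusted p 0.183). Pdgfra was at 208, 109, 65.2 and 146 CPM and 261, 236 and 276 CPM (0.99, SE 0.37), and Bcas1 at 399, 211, 119 and 359 CPM and 511, 461 and 653 CPM (0.98, SE 0.42). In these 3 genes every KO isolate was above every Het isolate. Cspg4 (94, 66.3, 39.5 and 69.5 CPM against 138, 103 and 89.1 CPM) and Enpp6 (93, 50.8, 32.9 and 116 CPM against 105, 130 and 218 CPM) overlapped.

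Trf went the other way in the isolates, at 573, 585, 788 and 669 CPM in Het and 308, 366 and 412 CPM in KO, the arms not overlapping as in 20% of all genes with KO lower (log2 fold change -0.86, SE 0.2, edgeR adjusted p 0.0629). It was past the threshold with DESeq2, with no filter on low counts and with no sex term. Without Het animal 1 the count of called members was 13 in place of 0, of which 12 were higher and Trf lower, and without Het animal 21 it was 4. All genes moved likewise in those fits, with 31.5% and 17.2% of them called, so these member counts are near or below the background. Without Het animal 20, Het animal 23 or any single KO animal, 0 members and 0 genes of any kind were called. Choroid plexus, another source of transferrin, had markers with a median of -0.52 here and none called (0 at an unadjusted p under 0.05), and its part in the Trf value was not tested.

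**Figure D4:**
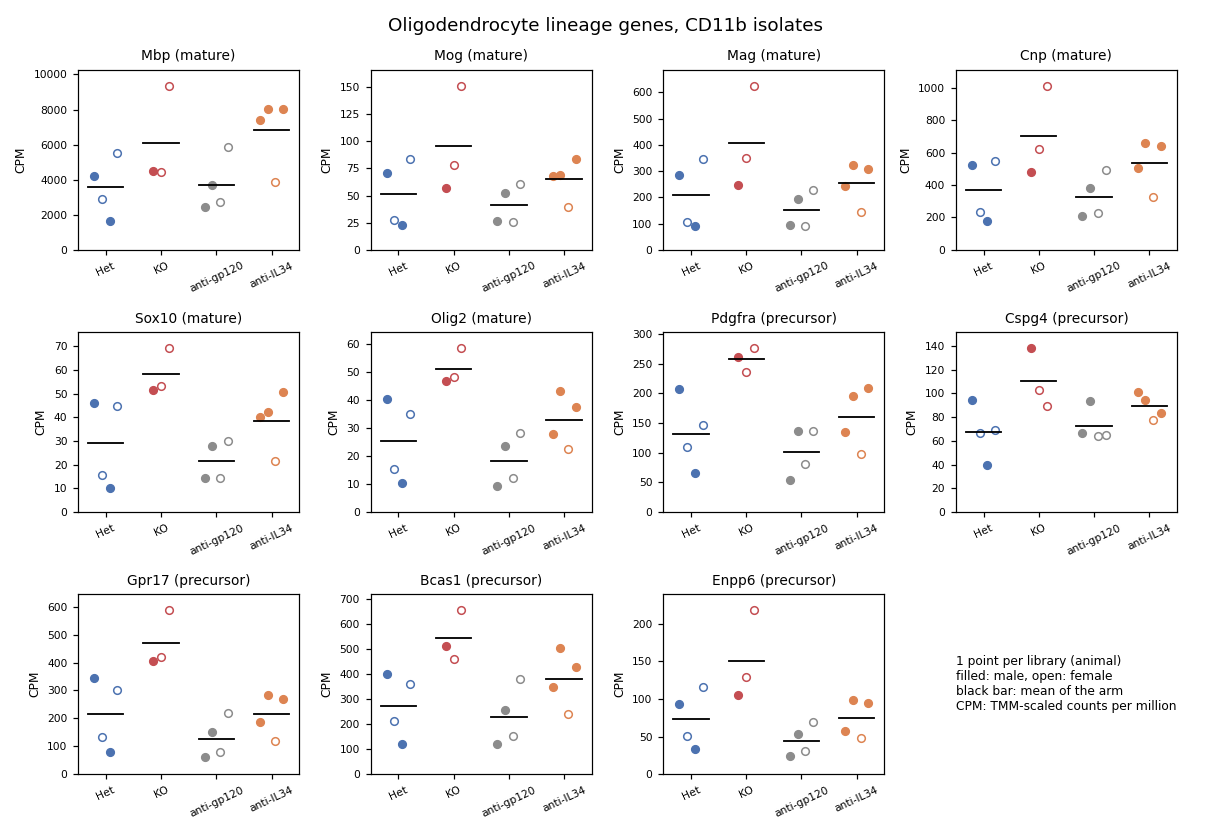
Level in the CD11b isolates (CPM, linear axis from 0) of the same 11 members by arm, with 1 point per animal (filled, male; open, female) and a bar at the mean of the arm. Mbp runs from 1650 to 5550 CPM within Het and from 4450 to 9340 CPM within KO, and Pdgfra of every KO isolate is above that of every Het isolate.

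The antibody gave a like picture in the isolates, with 0 of 36 members called (edgeR, 0.626% of 17570 genes), 1 at an unadjusted p under 0.05 and 1 called by DESeq2, in each case Trf. Over all genes these shares were 25.9% and 11.5%. The mature median was 0.60 and the precursor median 0.70, with 30 of 31 and 5 of 5 positive, and leaving out 1 animal gave 0.26 to 1.02 and 0.20 to 1.11. No member had every anti-IL34 isolate above every anti-gp120 isolate, a pattern of 4.76% of all genes. Astrocyte markers (median 0.69) and neuron markers (0.94) were also positive in 12 of 12 and 11 of 11 genes with none called (0 and 5 at an unadjusted p under 0.05). Microglia markers had a median of -1.01, and the part of these lists in the members' values was not tested.

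Mbp had the largest positive value, at 2430, 3670, 2750 and 5880 CPM in anti-gp120 isolates (animals 1, 7, 8 and 15) and 7380, 8040, 3860 and 8010 CPM in anti-IL34 isolates (animals 2, 10, 11 and 24; log2 fold change 0.85, SE 0.42, edgeR adjusted p 0.225). Mog was at 26.7, 52.7, 26.1 and 60.9 CPM and 68.5, 68.8, 39.6 and 83.7 CPM. Control animal 15 was the highest of its arm in 28 of 31 mature members, and anti-IL34 animal 11 the lowest of its own in 30 of 31.

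Cnp was at 208, 381, 225 and 491 CPM with anti-gp120 and 506, 657, 327 and 643 CPM with anti-IL34, and Mag at 96.6, 192, 90.2 and 227 CPM and 242, 323, 144 and 307 CPM. Sox10 was at 14.3, 28, 14.4 and 29.8 CPM and 40.1, 42.1, 21.4 and 50.5 CPM, and Olig2 at 9.27, 23.5, 12 and 28 CPM and 27.7, 43.1, 22.5 and 37.4 CPM. The arms overlapped for all 4 genes.

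Pdgfra was at 53.9, 136, 80.9 and 136 CPM with anti-gp120 and 135, 196, 97.2 and 209 CPM with anti-IL34, and Cspg4 at 66.4, 93.6, 64.2 and 64.5 CPM and 101, 94.4, 77.9 and 83.7 CPM. Gpr17 was at 60.4, 152, 79.1 and 219 CPM and 188, 284, 119 and 270 CPM, and Bcas1 at 121, 255, 151 and 381 CPM and 347, 505, 240 and 427 CPM. Enpp6 was at 24.4, 53.3, 30.9 and 69.1 CPM and 57.7, 98.8, 48.6 and 95.2 CPM. All 5 precursor pairs overlapped.

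Trf, at 967, 754, 908 and 674 CPM with anti-gp120 and 452, 437, 515 and 496 CPM with anti-IL34, was again the 1 member with the opposite sign and with arms that did not overlap, a pattern of 10.8% of all genes with anti-IL34 lower (log2 fold change -0.80, SE 0.16, edgeR adjusted p 0.0595). Without control animal 15 the count of called members went from 0 to 29, of which 28 were higher and Trf lower, in a fit where 40.4% of all genes were called. Choroid plexus markers had a median of 2.88 in this comparison, and their part in the Trf value was not tested. Between the control arms, 0 members were called in the isolates (edgeR, 1.94% of all genes; 0 at an unadjusted p under 0.05 and 0 in DESeq2), with medians of -0.25 and -0.37 whose sign was not stable, since leaving out 1 animal gave -0.58 to 0.09 and -0.65 to 0.06. No difference between deletion and antibody passed in the isolates (0 of 36 members in edgeR and in DESeq2, 0 at an unadjusted p under 0.05, and 0% of all genes called).

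The treatment differences were compared between the tissues as an interaction. For deletion, isolate less forebrain, the median was 1.12 for the mature members and 1.14 for the precursors, with 35 of 36 positive. No member passed in edgeR, where 2.98% of all genes did. An unadjusted p under 0.05 was found for 20 members, against 31% of all genes, and DESeq2 called 6 (Aspa, Car2, Lpar1, Qdpr, Ninj2 and Adamts4), near its share of 18.1% of all genes. Cldn11 had the largest value (1.29, SE 0.58, edgeR adjusted p 0.161) and Trf the 1 negative one (-0.46, SE 0.2). Astrocyte and neuron markers had medians of 1.04 and 0.94 in this contrast, whose part was not tested. Without Het animal 1 the count was 27, where 28.5% of all genes were called, and without Het animal 21 it was 5, where 16.3% were. Leaving out any other single animal gave 0 members and 0 genes of any kind, as did a replicate block by animal. Of the further mature list 1 gene was called, Cryab (0.93, SE 0.21, edgeR adjusted p 0.0423), and that call does not stand in the blocked fit.

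For the antibody, the same contrast had medians of 0.66 and 0.76 with 35 of 36 members positive. None was called in edgeR (0.0924% of all genes), 3 had an unadjusted p under 0.05 (21.1% of all genes) and DESeq2 called 1, Trf (5.94% of all genes). Mbp had the largest value (1.04, SE 0.41, edgeR adjusted p 0.209). Astrocyte and neuron markers had medians of 0.82 and 0.90. Leaving out 1 animal gave medians of 0.31 to 0.91 and 0.36 to 1.1. Without control animal 15 the count was 25, where 29.9% of all genes were called, and with the replicate block it was 0, as it was for all genes.

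**Figure D5:**
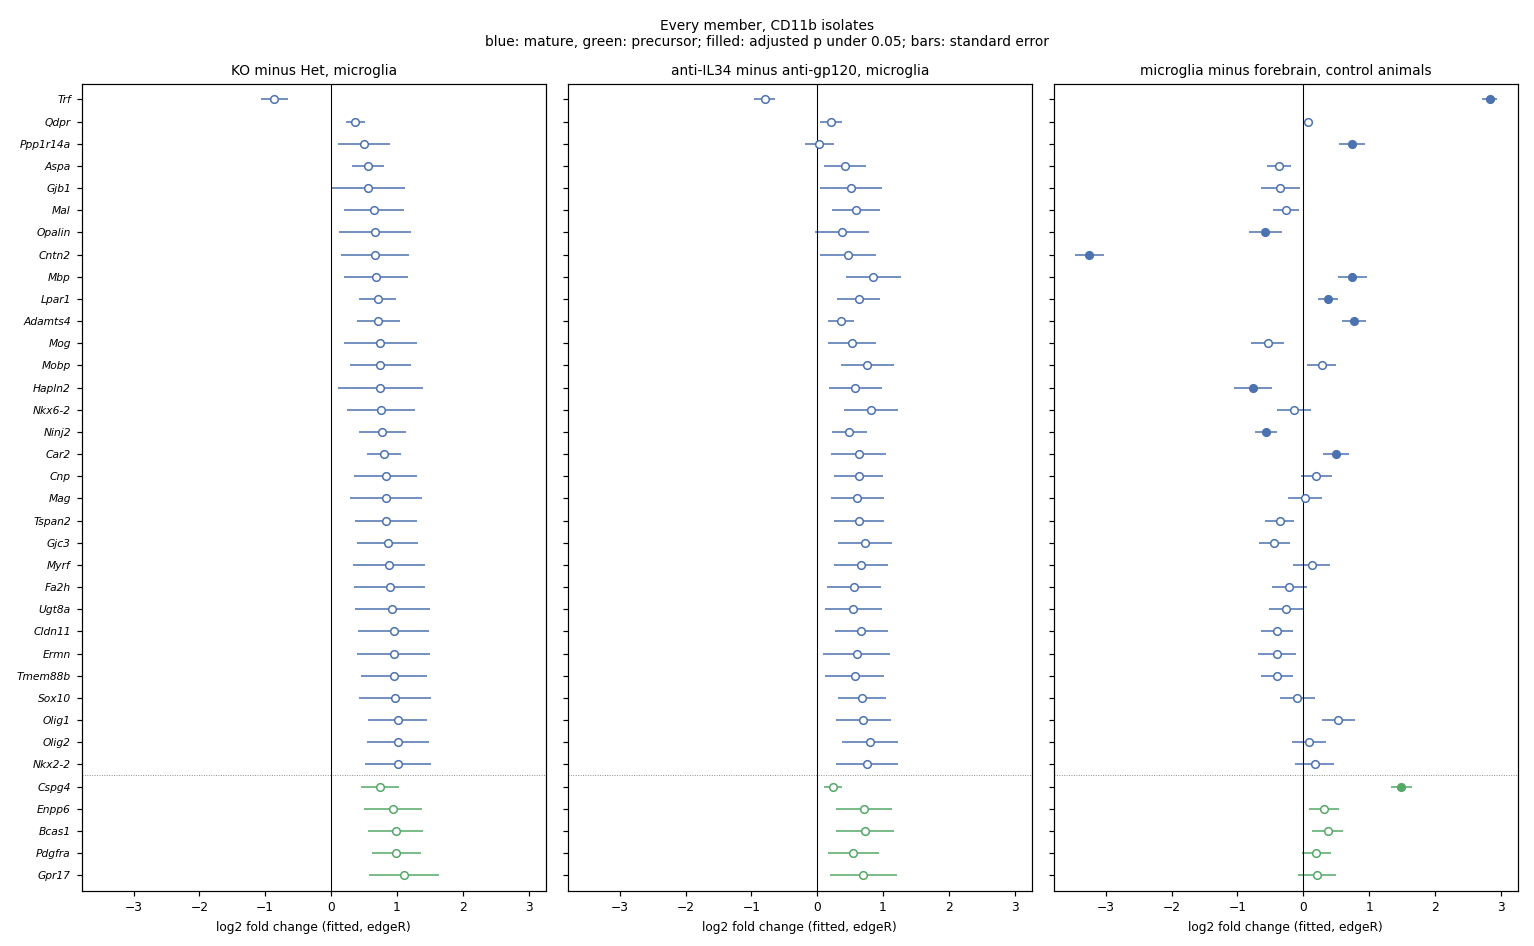
Fitted log2 fold change of each member (point) with its standard error (bar) for KO minus Het and anti-IL34 minus anti-gp120 in the CD11b isolates and for isolate minus forebrain in the control animals, mature members above the dotted line and precursors below it. Filled points passed the test, 0 in the left and middle panels and 11 in the right one, and Trf is the 1 member with negative values in the left and middle panels.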

How the data were processed

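RNA was extracted with TRIzol and a SMART-Seq v4 kit for low input served for the libraries, per the labels. The authors deposited whole-number read counts per gene. STAR 2.7.5c, featureCounts 1.6.3, R 4.4.0 and the build GRCm38 are named, without roles, in the submitters' processing notes. The deposited table also gives a Length per gene, another quantity, which equalled the GENCODE M21 gene span for 36 of 36 members, introns included. Counts can thus hold reads of overlapping genes, strand use is not stated, and 18 members overlap no other annotated gene (4 of the 11 called in KO forebrain). Not used here were 6 count columns that match no labelled sample, and the authors' other table of normalised values.

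Tests on the counts used edgeR 4.0.16 (R 4.3.3; quasi-likelihood F test, TMM, default expression filter, sex as a covariate, Benjamini-Hochberg threshold 0.05 over all genes), fitted on the whole table. An SE was taken as the absolute log2 fold change over √F. Log2 CPM used a prior count of 2. DESeq2 1.42.0, RLE scaling, no low-count filter, no sex terms, an animal block and leaving out each animal were alternatives. The fit was tested on simulated data only with changes larger than the members' treatment changes in forebrain. That test does not cover changes of their size. The libraries of 1 animal are paired (median r of their deviations 0.109, over 0.1 in 9 of 15 animals). Nothing says whether littermates were used.

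Members and lists were chosen with earlier results of these data known. Named in full were Mbp, Mog, Mag, Cnp, Sox10, Olig2 and the 5 precursors, then members past the threshold (at most 5 per direction by p where over 10) and the largest fold in each direction. Of the further lineage lists, up to 2 called genes per direction with the smallest p were named, and 1 such gene is not reported here.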

Additional observations from a re-analysis of the deposited data

Results flagged for a closer look

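Of 78 groups of 4 libraries (a gene or list mean in an arm and tissue) tested for a sample far from the others, 7 had one, where chance gives about 1 in 20. Values are log2 CPM. In forebrain, Het animal 20 was highest for Mbp at 11.29 (the others 11.08 to 11.11) and for Enpp6 at 5.88 (5.61 to 5.64). Anti-gp120 animal 15 was lowest for Olig2 at 4.06 (4.31 to 4.36). With anti-IL34, animal 2 was lowest for Pdgfra at 6.12 (6.60 to 6.62) and animal 10 highest for Gpr17 at 7.14 (6.79 to 6.84). In the isolates, anti-IL34 animal 11 was lowest for Mbp at 11.91 (12.85 to 12.97), and anti-gp120 animal 7 was highest for Cspg4 at 6.55 (6.01 to 6.05). KO arms hold 3 animals and were not tested.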

How the results depend on the processing

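Counts of called members are given, with the share of all genes called in parentheses, and no called value turned its direction under any alternative run. For KO against Het forebrain, 11 members became 22 with no filter on low counts (1.24%) and 3 with no sex terms (0.631%), and 0 to 11 when 1 animal was left out. For KO against Het isolates, 0 became 3 with DESeq2 (21.4%), 2 with no filter (6.78%) and 1 with no sex terms (12%), and 0 to 13 with 1 animal left out. For anti-IL34 against anti-gp120 isolates, 0 became 1 with DESeq2 (11.5%), no filter (2.75%) or no sex terms (5.59%), and 0 to 29 with 1 animal left out. For anti-gp120 against Het forebrain, 1 became 3 with DESeq2 (2.21%), 7 with no filter (2.94%), and 0 to 2 with 1 animal left out. For deletion against antibody in forebrain, 0 became 3 with no filter (0.352%). For the deletion effect between tissues, 0 became 6 with DESeq2 (18.1%), 6 with no filter (4.82%) and 3 with no sex terms (11.9%), and 0 to 27 with 1 animal left out. For the antibody effect between tissues, 0 became 1 with DESeq2 (5.94%), 7 with no filter (4.15%), and 0 to 25 with 1 animal left out. For isolates against forebrain of the controls, lower members were 4, 10 with the animal as a replicate block, and 2 to 7 with 1 animal left out. The block left both tissue interactions at 0 members, with 0 called over all genes. Where a KO male or anti-IL34 female was left out, sex rests on the other arm. The cause of these changes was not tested. RLE scaling added 1 call, Olig1 higher in isolates than in forebrain. Every member had at least 10 reads in every library, and arms of 3 or 4 animals limit the precision.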
